A study of Mus musculus with 6 samples.

Results

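The cytosolic ribosomal protein genes were chosen by symbol: names made of Rpl or Rps followed by a number and at most 1 letter, together with Rplp0, Rplp1, Rplp2 and Rpsa, without names that contain -ps. The rule itself uses no measured value, although it was chosen with earlier results of these data known. The rule found 83 of the 49315 genes in the count table, 51 of the large (60S) and 32 of the small (40S) subunit. In GENCODE release M21, 80 of them were protein-coding and 3 were processed pseudogenes (Rps4l, Rpl6l and Rpl32l). RNA was sequenced from lung cells of C57BL/6 mice, male C57BL/6J according to the methods, 21 days after oropharyngeal bleomycin sulfate (BLM-treated), a genotoxic drug that induces lung fibrosis, or sterile saline (sham-treated). From each treatment there was 1 library of unsorted cells, 1 of Lamp1-depleted and 1 of Lamp1-enriched cells, the fractions being sorted by the lysosomal protein Lamp1 on the cell surface. Lungs of mice of the same group were pooled, and no other genotype, agent or age distinguished the groups in the labels. Each fraction is a mixture of lung cell types, and with 1 library per condition no difference could be set against a spread between mice and no test between conditions was made.

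Cytosolic ribosomal proteins, together with the ribosomal RNAs, form the particle that translates nuclear-encoded mRNAs. Many of the proteins are assembled onto the RNA in the nucleolus, most of them in nearly equal numbers. The mRNAs of ribosomal proteins are among the most abundant of a growing cell. Most begin at a cytosine within a run of pyrimidines, the 5′ terminal oligopyrimidine motif, through which growth signalling by mTOR adjusts their translation. Some members also have paralogues, such as Rpl3l of muscle and Rpl10l of testis, whose mRNA is largely confined to few tissues.

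Short windows around the RefSeq start (GRCm38.p6) are shown for 6 members whose values are given further on, since most members had their highest level in the same library and Rps27l, Rplp2 and others did not. Each runs 5′ to 3′ on the gene's own strand, from 30 bases before the start to 20 after it. For Rps27l the first of 2 windows is shown. Capitals mark the longest run of C and T within 20 bases of the start, or the first of equally long ones.
Rps6, chr4:86857348-86857397, minus strand: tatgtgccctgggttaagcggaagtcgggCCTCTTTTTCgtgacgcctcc
Rps27, chr3:90213629-90213678, minus strand: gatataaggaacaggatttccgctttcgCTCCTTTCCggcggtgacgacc
Rps27l, chr9:66946056-66946105, plus strand: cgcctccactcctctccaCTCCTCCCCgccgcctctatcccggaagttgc
Rplp2, chr7:141447621-141447670, plus strand: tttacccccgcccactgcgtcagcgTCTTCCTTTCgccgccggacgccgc
Rpl4, chr9:64173357-64173406, plus strand: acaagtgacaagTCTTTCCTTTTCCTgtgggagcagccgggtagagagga
Rpl39, chrX:37085203-37085252, minus strand: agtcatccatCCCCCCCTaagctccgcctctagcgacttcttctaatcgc
In Rps6 the run lay at the start itself, while in Rps27l and Rpl4 it lay upstream of it. In Rpl39 the marked run of 8 bases lay upstream, and another of equal length followed the start. The marked run was cut at the limit of 20 bases, since the base before it is also a pyrimidine.

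Windows were found for 60 of the 80 protein-coding members. A run of at least 8 pyrimidines within 20 bases of the start was present in 29 of the 60 (48.3%), against 18.4% of all 27025 symbols with a window. The ETS-type letters CCGGAAG, searched on both strands of the whole promoter window, were found in 41.7% of members against 9.93% of symbols, and CTCTTTC in 28.3% against 9.28%. The YY1-type letters AAGATGGC were in 8.33% of members against 3.19%, and TATAAA in 10% against 15.7%. Matches to different motifs could overlap. Members with a long pyrimidine run had a median log2 ratio of -1.05 in the sham comparison of Lamp1-enriched with Lamp1-depleted cells, and members without one -1.0, both well inside the quartiles of all members (-1.26 and -0.76).

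The libraries held 30236120 to 52918696 counted reads, and 17870 to 21842 genes had at least 10 reads. The BLM Lamp1-depleted library stood apart, with 38.4% of its reads on Gm26917, a row at which residual ribosomal RNA is counted, against 0.884% to 7.10% elsewhere, and with an edgeR TMM factor of 0.699. Results that rest on it are therefore also given with other scalings. Lamp1 had 490.9 CPM (normalized counts scaled to a library of 1000000 reads) in Lamp1-enriched and 146 in Lamp1-depleted sham cells, and 378 and 111 in BLM cells, so it was higher in the sorted-for fraction of both treatments. Markers of lung endothelium, epithelium and fibroblasts were present in every library, with 10 of 10, at least 9 of 10 and at least 7 of 8 genes at 10 reads or more.

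Of the 83 members, 81 had at least 10 reads in a library and 78 at least 50. Per kilobase of 1 annotated transcript, the mean level over the libraries was highest for Rps27 (630.4 CPM per kb), a zinc-finger protein of the 40S subunit, followed by Rpl9 (472), Rps9 (435), Rps13 (397) and Rpl10 (392). Among protein-coding members with at least 50 reads, the highest level was 32.5 times the lowest, that of Rps15a (19.4), whose annotated transcript of 5130 nt is far longer than those of the other members, so its level depends on that choice. The levels of members ranked alike in the libraries, with Spearman's rho over 78 members from 0.83 for sham Lamp1-enriched with BLM Lamp1-depleted cells to 0.98 for the Lamp1-enriched libraries. These values describe genes of the same libraries and are not independent replicates.

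Paralogues known from other tissues were at or near the limit of detection. Rpl10l had 1 read in sham unsorted cells and 0 in the other libraries, which allows up to 3 reads in each. Rpl39l had 3 and 9 reads in sham unsorted and sham Lamp1-depleted cells, 2 in BLM unsorted cells and 0 elsewhere. Rpl3l had 8 to 11 reads in every library. Per kilobase, the mean levels of Rpl3l and Rpl39l were 0.169 and 0.0642 CPM, and those of Rpl3, Rpl39 and Rpl10 were 265, 41.8 and 392 CPM. The other pair, Rps27 and Rps27l, was expressed on both sides, and Rps4l was counted beside Rps4x.

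Taken as a sum, the members were most abundant in sham Lamp1-depleted cells. Values for 3 libraries of a treatment are given in the order unsorted, Lamp1-depleted, Lamp1-enriched. Members took 1.24%, 2.91% and 1.23% of the counted reads of the sham libraries, and 0.789%, 0.851% and 1.12% of those of the BLM libraries. The widest 95% Clopper-Pearson interval, in sham Lamp1-depleted cells, was 2.90% to 2.91%, and such intervals cover counting error only. Outside Gm26917 the share in BLM Lamp1-depleted cells was 1.38% and that in sham Lamp1-depleted cells 3.01%. With TMM factors the summed level was 10435, 25247 and 12084 CPM in sham cells and 7942, 12175 and 10909 CPM in BLM cells. The sham Lamp1-depleted library thus stood above the 5 others, which lay within a much narrower range. In bulk samples fewer cells of a type and less RNA per cell cannot be told apart, and this holds for every ratio that follows. The large subunit made up 55.9% to 61.3% of the members' reads in all libraries.

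Lymphocyte markers were set beside the members' sum. The summed level of 8 B cell markers was 281, 3527 and 188 CPM in sham cells and 254, 1891 and 85 CPM in BLM cells. For 10 T cell markers it was 94.8, 943 and 82.4 CPM and 86.3, 655 and 51.1 CPM, and for 8 NK cell markers 33.7, 272 and 21.8 CPM and 16.7, 115 and 7.45 CPM. All of these markers had at least 10 reads in every library. In each treatment the lymphocyte markers were thus highest in Lamp1-depleted cells, the libraries in which the members' sum was also highest, except that with total counts only the BLM sum was higher in Lamp1-enriched cells. With TMM the members' BLM sum was only 1.12 times as high in Lamp1-depleted as in Lamp1-enriched cells. Other lists shared part of the order. Monocyte and interstitial macrophage markers were highest in the Lamp1-depleted library in sham cells only (202, 456 and 104 CPM). Neutrophil markers were so in BLM cells only (143, 362 and 66.0 CPM). The part of cell composition in the members' levels was not tested.

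**Figure D1:**
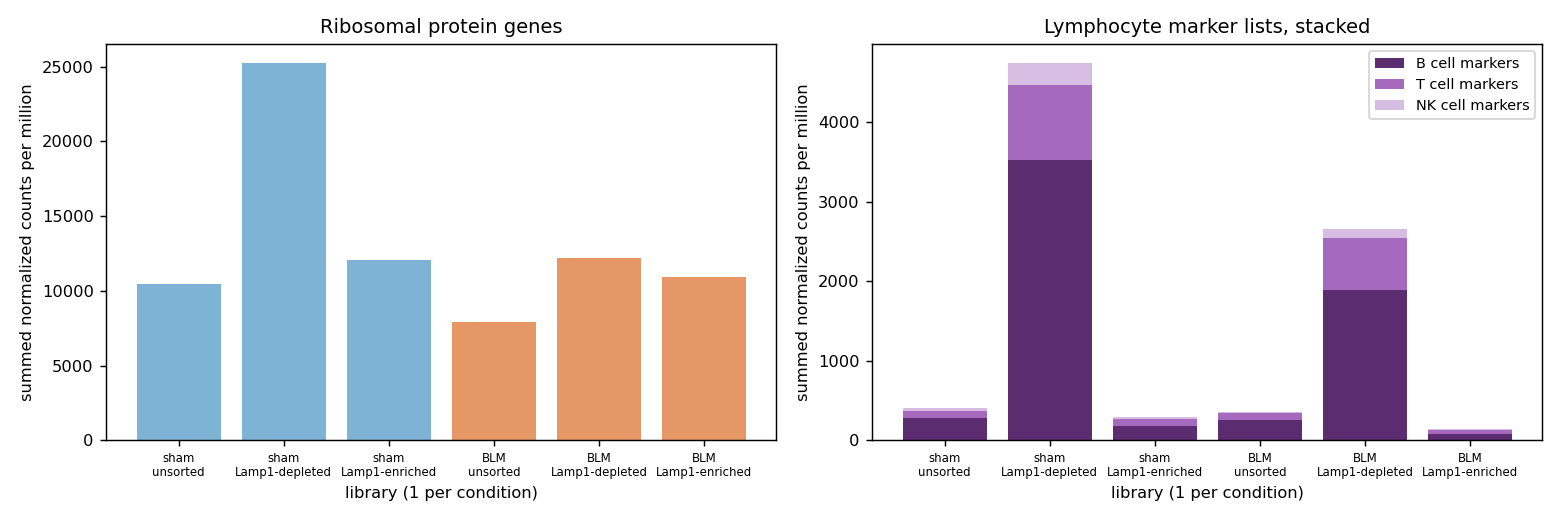
The left panel shows the summed TMM-normalized CPM of the 83 ribosomal protein genes in each of the 6 libraries, and the right panel the summed CPM of the B, T and NK cell marker lists, stacked; bars are single libraries, without error bars. The ribosomal protein sum was 25247 CPM in sham Lamp1-depleted cells and ran from 7942 to 12175 CPM elsewhere, and lymphocyte markers were highest in both Lamp1-depleted libraries.

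In sham-treated mice the ribosomal protein genes were lower in Lamp1-enriched than in Lamp1-depleted cells almost without exception. Of 80 members with at least 10 reads in either library, 78 had a log2 ratio below 0, with a median of -1.01 and a summed level 2.09 times lower. At a log2 ratio of at least 1 in size, a factor of 2, 41 members were lower, against a background of 25.2% of all 21867 genes, and 1 was higher, against 27.5%. The median over all genes was -0.01. Both subunits took part, with a median of -0.97 over 48 large subunit members and -1.06 over 32 small subunit members. Under each other scaling tried, 78 members again lay below 0, and 38 to 58 were at least a factor of 2 lower.

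Members with the lowest ratios came from several sites of the particle. Rps15a, a 40S protein, had 74.3, 262 and 83.6 CPM in sham cells and 42.4, 65.3 and 68.8 CPM in BLM cells, a sham ratio of -1.65 (counting interval -1.70 to -1.60). Rpl12, at the base of the stalk that recruits elongation factors, had 161, 611 and 195 CPM and 104, 205 and 160.5 CPM, a sham ratio of -1.64. Rps27 had 178, 610.0 and 204 CPM and 67.1, 105 and 140.4 CPM, a sham ratio of -1.58. The sham Lamp1-depleted library stood far above the other 5 in each of these genes. The smallest differences were those of Rpl31 (-0.17) and Rps12 (-0.35).

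The P stalk proteins differed among themselves. Rplp0, the stalk's anchor, had 319, 909.6 and 451 CPM in sham and 286, 405 and 419 CPM in BLM cells. Rplp1 had 141, 230.0 and 139 CPM and 117, 186 and 103 CPM, and Rplp2, its partner in the stalk dimers, 108, 231 and 80.2 CPM and 115, 279 and 86.0 CPM. Rplp2 was thus highest in the BLM Lamp1-depleted library, unlike Rplp0 and Rplp1, although with total counts only its highest library was sham Lamp1-depleted. In the sham sort the ratios were -1.01 for Rplp0, -0.73 for Rplp1 and -1.53 for Rplp2. In the BLM sort they were 0.05, -0.86 and -1.70, and that of Rplp0 was below 0 with DESeq2 size factors and with total counts outside Gm26917.

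Rpl5 and Rpl11, which carry the 5S RNA into the ribosome and bind Mdm2 when assembly is disturbed, had sham ratios of -1.46 and -0.99. Rpl5 had 208, 565 and 206 CPM in sham and 172, 379.6 and 195 CPM in BLM cells. Rpl11 had 31.2, 67.8 and 34.1 CPM and 20.9, 33.9 and 28.9 CPM. Both were highest in sham Lamp1-depleted cells, and their BLM sort ratios were -0.96 and -0.23. Rps6, the substrate of the S6 kinases, had 232, 597 and 284 CPM and 213, 305 and 322 CPM. Rpsa, a 40S protein also described as a laminin receptor precursor, had 303, 1073 and 423 CPM and 204, 345 and 327 CPM. Rps27a, made as a fusion with ubiquitin, had 56.0, 101 and 47.1 CPM and 37.2, 50.2 and 45.7 CPM. For each of these 3 the sham Lamp1-depleted library was the highest and the BLM unsorted library the lowest, except that with total counts only Rps27a was lowest in BLM Lamp1-depleted cells.

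**Figure D2:**
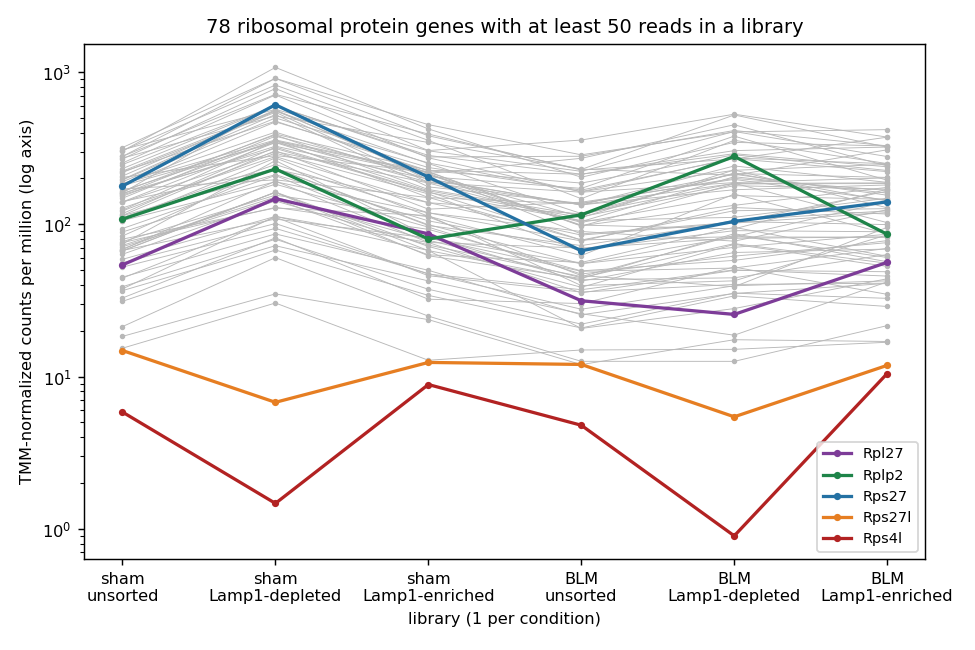
TMM-normalized CPM (log axis) of the 78 ribosomal protein genes with at least 50 reads in a library, 1 line per gene over the 6 libraries, with 5 genes in colour; each point is a single library. Most lines peak in sham Lamp1-depleted cells, the highest library for 74 of the 78 (76 with total counts only), while Rps27l and Rps4l dip in both Lamp1-depleted libraries and Rplp2 peaks in BLM Lamp1-depleted cells, though not with total counts only. The highest library was not counted over all genes.

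In BLM-treated mice the same contrast was centred near 0. The median log2 ratio of Lamp1-enriched over Lamp1-depleted cells was -0.02 over 79 members, with 38 above and 41 below 0, and it was -0.18 with DESeq2 size factors, -0.14 with total counts outside Gm26917 and 0.54 with total counts only. Total counts only raised every ratio of this sort by 0.56, so that any ratio less than 0.56 below 0, such as those of Rpl11 and Rps4x, lay above 0 with that scaling. At the factor of 2, 6 members were higher, against a background of 34.4% of 21838 genes, and 2 were lower, against 22.6%. With DESeq2 size factors 3 were higher and 6 lower, with total counts outside Gm26917 5 and 4, and with total counts only 15 and 1. The median of all genes was 0.29, and the members' median lay 0.32 below it with TMM and 0.31 to 0.32 below it under the other scalings. With TMM the 6 higher members were Rps4l, Rpl29, Rpl24, Rpl27, Rps27l and Rpl31, and the 2 lower were Rplp2 and Rpl6l, a pseudogene with 12 reads in each of these libraries that was named after its values were seen.

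The quartiles of the members were -0.39 and 0.34 in BLM cells, against -1.26 and -0.76 in sham cells. Rpl29, a small basic protein of the 60S subunit, had 77.0, 155 and 112 CPM in sham and 46.1, 39.0 and 95.5 CPM in BLM cells, a ratio of -0.47 in sham and 1.29 (1.19 to 1.40) in BLM. Rpl24, which forms a bridge between the subunits, had 36.7, 72.4 and 42.5 CPM and 25.9, 18.7 and 41.9 CPM, with ratios of -0.77 and 1.16. Rpl27 had 54.2, 147 and 86.6 CPM and 31.5, 25.6 and 56.3 CPM, with ratios of -0.77 and 1.14. In these 3 the BLM Lamp1-depleted library was the lowest of the 6. Rpl39 and Rpl31, which lie at the exit of the tunnel for the growing chain, had ratios of -1.28 and -0.17 in sham and 0.78 and 1.0 in BLM. Rpl39 had 21.3, 60.5 and 25 CPM and 12.6, 12.6 and 21.6 CPM, and Rpl31 79.9, 128 and 114 CPM and 39.6, 42.6 and 85.3 CPM.

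At the other end, Rps9 had a BLM sort ratio of -0.90, against -1.37 in sham. Rps9 had 224, 557 and 216 CPM in sham and 271, 451 and 242 CPM in BLM cells. Its 2 Lamp1-depleted libraries were the 2 highest, under each scaling tried. Over the 79 members measured in both sorts, 41 were lower in Lamp1-enriched cells in both treatments, 36 were lower in sham and higher in BLM, and 2 were higher in both. The middle class held 24 members with DESeq2 size factors, 25 with total counts outside Gm26917 and 65 with total counts only, so its size depended on the scaling of the BLM Lamp1-depleted library. These classes were not counted over all genes. Of all tested genes, 50.6% were lower in Lamp1-enriched cells in sham and 57.2% were higher in BLM.

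**Figure D3:**
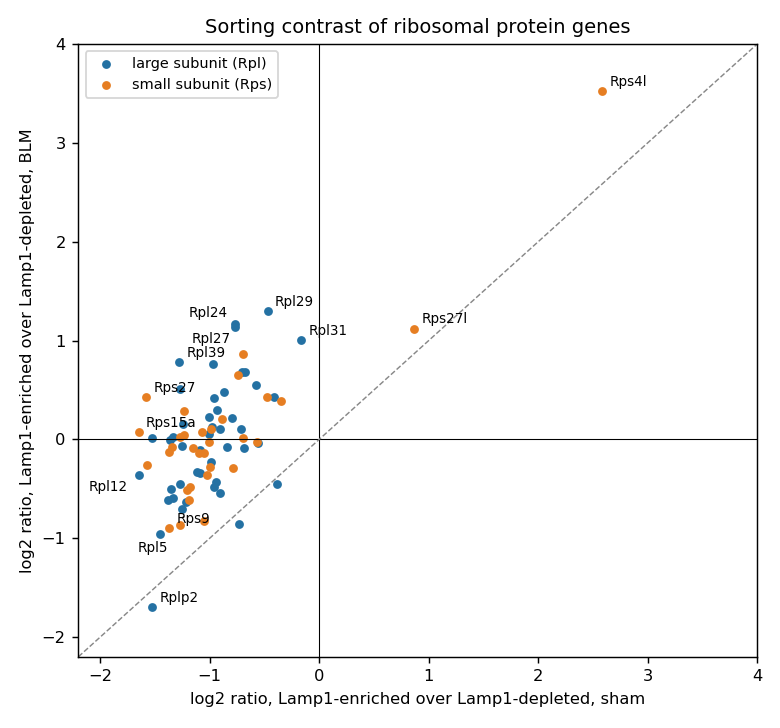
Log2 ratio of Lamp1-enriched over Lamp1-depleted cells in sham-treated (horizontal) and BLM-treated mice (vertical) for the ribosomal protein genes with at least 50 reads in a library; each point is 1 gene from single libraries and the dashed line marks equal ratios. Nearly all points lie left of 0 and above the line, around medians of -1.01 (sham) and -0.02 (BLM with TMM; 0.54 with total counts only); Rps4l and Rps27l lie right of 0 and Rplp2 lies lowest.

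Rps4l and Rps27l were the 2 members above 0 in the sham sort, and they lay above 0 in the BLM sort as well, as did 36 others with TMM. Rps4l, on chromosome 6 and annotated as a transcribed processed pseudogene, had 284, 67 and 408 reads in sham and 189, 19 and 571 reads in BLM cells. As levels these were 5.85, 1.47 and 8.87 CPM and 4.79, 0.899 and 10.5 CPM. Both Lamp1-depleted libraries lay below the other 4. The Lamp1-enriched level was 5.99 times the Lamp1-depleted one in sham (log2 ratio 2.58, interval 2.22 to 2.99) and 11.5 times in BLM (3.52, 2.89 to 4.28). Rps4x itself had 180.4, 471 and 236 CPM and 168, 269.9 and 222 CPM, with ratios of -1.0 and -0.28. Of the 100-base stretches of Rps4l, 1.66% were also found in transcripts of another gene, against 18.7% for Rps4x.

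Rps27l, a p53-responsive paralogue of Rps27, had 14.8, 6.78 and 12.4 CPM in sham and 12, 5.44 and 11.9 CPM in BLM cells. Its Lamp1-depleted libraries were again the 2 lowest, and the ratios were 0.87 (0.67 to 1.07) in sham and 1.12 (0.83 to 1.42) in BLM. Per kilobase, Rps27l reached 29.7, 13.6 and 24.8 CPM and 24.1, 10.9 and 23.8 CPM, and Rps27 517, 1768 and 592 CPM and 194, 303 and 407 CPM. No 100-base stretch of Rps27l was shared with another gene, so its reads can be told from those of Rps27. In the windows shown above, both genes hold a pyrimidine run of 9 bases, at the start in Rps27 and upstream of it in Rps27l. In the other window of Rps27l, not printed, the longest such run within 20 bases of the start was 4 bases. The direction of both Rps4l and Rps27l was the same under every scaling tried.

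In unsorted cells the members were somewhat lower in BLM-treated than in sham-treated mice. The median log2 ratio was -0.51 over 81 members, with 70 below 0, against a median of -0.07 over all genes. It ranged from -0.78 with total counts only to -0.50 with DESeq2 size factors. At the factor of 2, 4 members were lower (background 16.0% of 22772 genes) and 2 were higher (background 13.9%). With total counts only 21 were lower, and with total counts outside Gm26917 11. The 4 lower with TMM were Rps27 with a ratio of -1.41, Rps12 and Rps24, both with -1.05, and Rpl31 with -1.01. Rps12 had 203 CPM in sham and 97.9 in BLM unsorted cells, and Rps24, mutated in some Diamond-Blackfan anaemias, 305 and 147 CPM. The 2 higher ones were the pseudogenes Rpl6l, with 13 and 27 reads, and Rpl32l, with 2 and 10 reads, both named after their values were seen. Among members with at least 50 reads the highest ratio was 0.43, that of Rps2 (158 and 213 CPM), followed by Rpl4 with 0.41 (269 and 358 CPM), Rpl10a with 0.29 and Rps9 with 0.28.

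In Lamp1-depleted cells the difference between treatments was larger. The median ratio of BLM over sham was -1.14 over 80 members, with 76 below 0, and the summed level was 2.07 times lower in BLM cells. The median of all genes was -0.21. At the factor of 2, 48 members were lower, against a background of 22.3% of 20852 genes, and 0 were higher, against 13.7%. Under the other scalings 39 to 76 were lower. The median was -0.99 with DESeq2 size factors, -1.21 with total counts outside Gm26917 and -1.86 with total counts only, and under each of these it lay 0.93 to 0.94 below that of all genes. The lowest ratios were those of Rps27 (-2.54, interval -2.61 to -2.48), Rpl27 (-2.52) and Rpl39 (-2.26), a factor of 5.83, 5.75 and 4.80. Relative to the median member these lay 1.40, 1.38 and 1.12 lower on the log2 scale, a difference that no scaling between libraries can alter. At the upper end were Rplp2 (0.27), which lay 1.42 above the median member, Rpl41 (0.12), and Rplp1 and Rps9 (both -0.31). Rplp2 and Rpl41 were below 0 with total counts only. Rpl3l, with 11 and 8 reads, had a ratio of 0.63 with an interval of -0.87 to 2.10 and was not resolved at this depth.

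In Lamp1-enriched cells the treatments were close. The median ratio was -0.20 over 79 members, with 62 below 0 and 17 above, and all ratios lay between -0.64 and 0.39. No member passed the factor of 2 in either direction, against a background of 7.81% lower and 10.2% higher among 21671 genes. Rpl27 was at -0.62, Rps27 at -0.54 and Rps24 at -0.51, and Rpl4 at 0.29, Rpl3 at 0.24 and Rpl10a at 0.20. Rps27 had 204 CPM in sham and 140.4 in BLM Lamp1-enriched cells, and Rpl4 305 and 374 CPM.

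**Figure D4:**
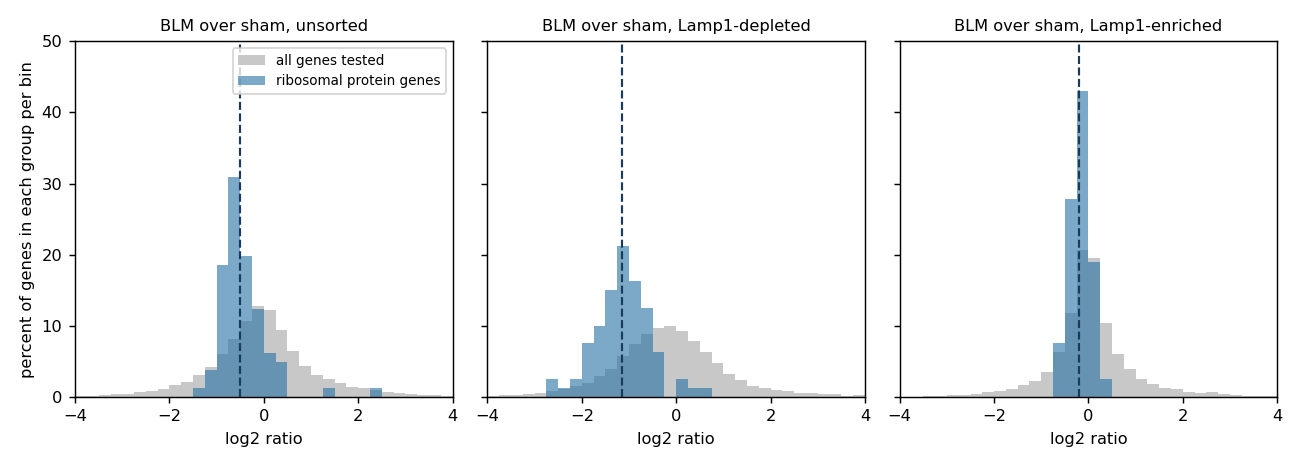
Log2 ratio of BLM over sham in unsorted, Lamp1-depleted and Lamp1-enriched cells for the ribosomal protein genes (blue) and all tested genes (grey), as the percent of each group per bin; the dashed line is the members' median. The blue distribution is centred at -0.51, -1.14 and -0.20, and in Lamp1-enriched cells it is narrow, between -0.64 and 0.39.

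With TMM, the unsorted library lay below both sorted fractions of its treatment for most members, which did not hold under every scaling. In sham cells 59 of 80 members (73.8%) were lower in unsorted than in both sorted libraries, against 22.1% of all genes. In BLM cells this held for 66 of 80 (82.5%), against 18.0%. With total counts only the numbers were 33 and 39, and with total counts outside Gm26917 31 and 68, so both counts rested on the scaling. The median log2 ratio over unsorted cells was 1.16 for sham Lamp1-depleted, 0.52 for BLM Lamp1-depleted, 0.17 for sham Lamp1-enriched and 0.49 for BLM Lamp1-enriched cells; that of sham Lamp1-enriched cells would lie below 0 with total counts, with or without Gm26917. Across the 6 libraries, BLM unsorted cells were the lowest for 59 of 78 members and BLM Lamp1-depleted cells for 9, numbers that were 38 and 34 with total counts only. The lowest library was not counted over all genes.

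Other genes of translation were compared by lists. The 7 ribosomal proteins that the name rule misses, among them Fau, Rack1 and Rps3a1, had medians of -0.96 and -0.08 in the sham and BLM sorts and -0.87 for BLM over sham in Lamp1-depleted cells, against -1.01, -0.02 and -1.14 for the members. In unsorted cells their BLM over sham median was -0.16, against -0.51. Rps3a1 had ratios of -1.37, -0.99 and -0.32, Fau of -1.34, -0.67 and -0.93, and Rack1 of -1.15, -0.39 and -0.84. The 78 mitochondrial ribosomal proteins, which build the separate ribosome of mitochondria, had medians of 0.20, 0.50 and -0.42 in these comparisons, and 0, 1 and 13 of them were at least a factor of 2 lower. In the sham sort 50 of the 78 lay above 0, where 78 of 80 cytosolic members lay below it, although total counts outside Gm26917, which lower every sham sort ratio by 0.21, would bring the mitochondrial median to just under 0.

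Elongation factors had medians of -0.57, -0.08 and -0.42. Eef1a1, which brings aminoacyl-tRNA to the ribosome, had -0.57, 0.22 and -0.74, and Tpt1, counted in the same list, -0.62, 0.68 and -1.55. The 30 initiation factors had medians of -0.18, 0.22 and -0.52, with 0, 0 and 7 at least a factor of 2 lower. The 40 ribosome biogenesis genes had -0.58, -0.24 and -0.15, with Npm1 at -1.23, -0.53 and -0.55 and Ncl, a nucleolar protein, at -0.66, -1.07 and 0.46. The 10 snoRNA host genes, which carry small nucleolar RNAs in their introns, had -1.49, -0.99 and -0.30. Gas5, a host gene that itself begins with a pyrimidine tract, had -1.85, -0.64 and -0.87. The 14 genes of growth control had medians of -0.15, -0.06 and 0.13, with Larp1, which binds the pyrimidine motif, at -0.53, -0.77 and 0.47. In unsorted cells the BLM over sham medians were 0.12 for elongation factors, 0.13 for initiation factors and 0.21 for ribosome biogenesis, above 0 where that of the cytosolic proteins was -0.51 and that of the mitochondrial ribosomal proteins -0.14. With total counts only, which lowers every BLM over sham ratio of unsorted cells by 0.26 on the log2 scale, these 3 medians would lie below 0, and so would the first 2 of them with total counts outside Gm26917.

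**Figure D5:**
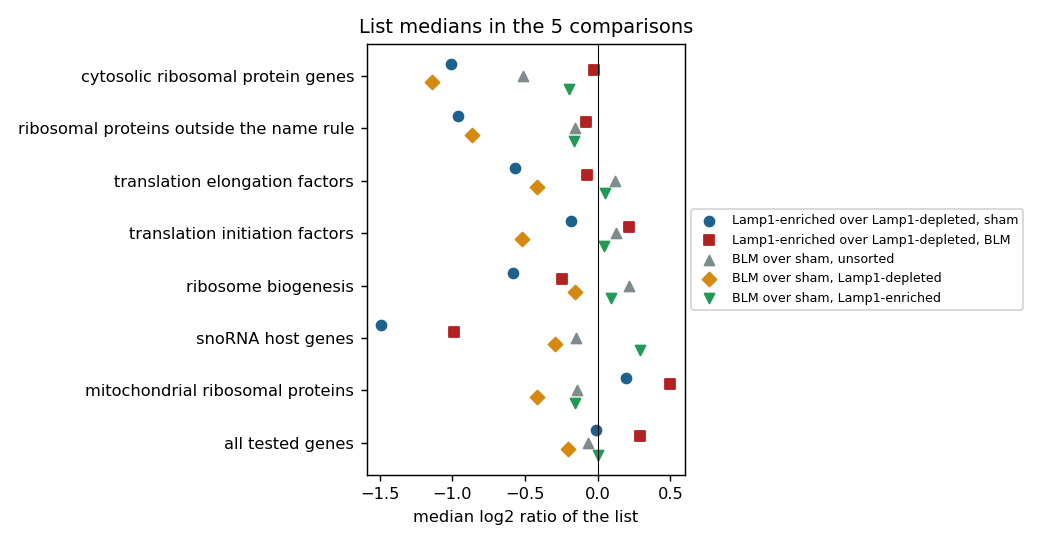
Median log2 ratio of each gene list (rows) in the 5 comparisons (symbols), with all tested genes in the last row; each ratio compares single libraries. Cytosolic ribosomal proteins and those outside the name rule lie together near -1 in the sham sort and in BLM over sham of Lamp1-depleted cells, while mitochondrial ribosomal proteins lie at 0.20 and -0.42; with total counts only the BLM sort median of the cytosolic proteins was 0.54 instead of -0.02.

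Lymphocyte, endothelial and platelet markers differed more between the sorted fractions than the median ribosomal protein gene did. In the sham sort the median log2 ratio was -4.28 for T cell, -4.22 for B cell and -3.69 for NK cell markers and 3.06 for endothelial, 2.54 for epithelial and 4.64 for platelet markers. In the BLM sort these were -4.33, -4.39, -3.60, 3.54, 1.47 and 2.88. Monocyte and interstitial macrophage markers had medians of -1.66 in the sham and -0.85 in the BLM sort, and neutrophil markers -0.35 and -2.22. For fibroblast markers they were 1.49 and 2.41, and for alveolar macrophage markers 0.07 and 0.87. Between treatments in Lamp1-depleted cells, NK cell markers had a median of -1.62, B cell markers of -1.10, T cell markers of -0.68 and neutrophil markers of 2.67. The B cell list was split, with 3 of 8 markers above 0. Fibroblast markers had a median of -1.13, also with 3 of 8 above 0. Platelet, endothelial and alveolar macrophage markers had medians of -0.82, -0.41 and -0.39. For epithelial markers it was 0.54, and for monocyte and interstitial macrophage markers 0.68. The summed neutrophil level was 53.7 CPM in sham and 362 CPM in BLM Lamp1-depleted cells. At 0 reads were Ly6g in sham Lamp1-enriched and Treml1 in BLM Lamp1-depleted cells, and no other marker. These values stood beside the members' differences, and their part in them was not tested.

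Transcript length and GC content were set against the ratios. Over 77 protein-coding members, Spearman's rho between transcript length and the log2 ratio was -0.26 in the sham sort, -0.30 in the BLM sort, 0.36 for BLM over sham in unsorted and 0.19 in Lamp1-depleted cells. The largest value was 0.45, for Lamp1-depleted over unsorted sham cells. For GC content rho was 0.05, -0.26, 0.06 and 0.17 in the first 4 comparisons, whereas over all protein-coding genes the rho with GC content was 0.46 for BLM over sham in Lamp1-depleted cells. Protein-coding genes with a GC content of 46.0% to 57.2%, the range that holds the middle 62 members, had a median of -0.05 there, and those 62 members -1.16. These correlations are across genes of the same libraries and are given as descriptions. Of the 80 protein-coding members, 73 shared at least 1 stretch of 100 bases with transcripts of another gene, with a median of 14.1% of stretches and a maximum of 55.3%. Exons of 27 members overlapped another gene on the same strand and those of 18 a gene on the other strand, and how such reads were counted is not given in the sources used here. The values of members such as Rpl24 (49.0% shared) and Rps6 (40.7%) are uncertain to that extent.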

How the data were processed

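One table of raw read counts per gene, deposited by the authors without normalization, was used for all 6 libraries of paired 150 nt reads. The submitters' processing notes name Trimmomatic 0.36, STAR 2.5.2b, featureCounts from Subread 1.5.2, DESeq2 and the build GRCm38; the annotation release, the strand setting and the treatment of multi-mapping reads are not given in the sources used here. Counts were scaled with edgeR 4.0.16 TMM factors (R 4.3.3) to CPM (a library of 1000000 reads). Log2 ratios, computed in Python 3.11.15 (numpy 2.4.6, pandas 2.3.3, scipy 1.17.1), used a prior of 0.5 reads scaled to the library; a gene entered a comparison when one of its libraries held 10 reads or more. A gene was counted as higher or lower at a log2 ratio of at least 1 in size. Intervals are 95% Clopper-Pearson intervals of the share of reads, which cover counting error only, and 3 reads were taken as the limit that a count of 0 allows. With 1 library per condition no p-value was computed.

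All 83 members were found by identifier in GENCODE M21, which gave biotype, position and the length of 1 transcript per gene (APPRIS principal first, then support level, then the shortest). Stretches of 100 bases were compared between transcripts. Promoter windows came from RefSeq (GRCm38.p6). Alternatives were DESeq2 1.42.0 size factors, total counts, total counts outside Gm26917, TMM factors without the members, a prior of 2 reads, a minimum of 1 or of 50 reads, thinning to the smallest total and a log2 ratio of at least 0.5. Protein-coding members only, and the counts of signs and orders under each scaling, were added after seeing the data.

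Named members were those of the stalk, the 5S RNA partners, Rpsa, Rps6, Rps27a and the paralogue pairs, the 3 most abundant, and the 3 highest and 3 lowest ratios in each comparison among members with at least 50 reads, up to 30 in all; Rpl41, Rps2 and a few others outside that limit were named after their values were seen. Of each other list, up to 3 genes with the highest mean level could be named. Members and lists were chosen with earlier results of these data known. The programs were tested on simulated data. Figures were drawn with matplotlib 3.10.9.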

Additional observations from a re-analysis of the deposited data

Results flagged for a closer look

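Opposite signs were screened among the members named by the rule only. In 10 of them the ratio of Lamp1-enriched over Lamp1-depleted cells lay below 0 in sham and above 0 in BLM cells, with both counting intervals clear of 0, and over all 78 members with at least 50 reads this held for 28. The BLM minus sham difference on the log2 scale was 2.06 for Rpl39, 2.00 for Rps27, 1.93 for Rpl24, 1.90 for Rpl27, 1.77 for Rpl29, 1.17 for Rpl31, 1.15 for Rps6, 1.13 for Rpl10, 1.06 for Rplp0 and 0.74 for Rps12. The signs stayed opposite under all 4 other scalings for 8 of them. For Rplp0 and Rps6 they did not with DESeq2 size factors and with total counts outside Gm26917. The counts over the 78 members, here and in the next paragraph, were not made over all genes. They therefore do not show a pattern particular to ribosomal protein genes.

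Between fractions, BLM over sham was below 0 in Lamp1-depleted and above 0 in Lamp1-enriched cells for Rps6, Rpl4, Rpl10a, Rpl3 and Rps9, with differences of 1.15, 0.85, 0.82, 0.78 and 0.47, among 11 of the 78 members with this pattern. Against unsorted cells, the Lamp1-enriched ratio was higher by 0.31 for Rps6 and 0.53 for Rps4l, with unsorted cells below and Lamp1-enriched cells above 0, a pattern of 5 of the 78. The Lamp1-depleted minus unsorted difference was -0.97 for Rpl4, -0.91 for Rpl10a, -0.72 for Rpl3 and -0.59 for Rps9, which were above 0 in unsorted and below 0 in Lamp1-depleted cells, as were 6 of the 78 in all; the sign of Rpl3 in unsorted cells was lost with total counts only. None of these differences was tested, since each rests on single libraries, and those with a Lamp1-depleted ratio share the library in which 38.4% of reads fell on Gm26917.

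Outside the members, 280 rows named as ribosomal protein pseudogenes (-ps) held 21569 reads over all libraries, equal to 0.560% to 0.897% of the members' reads in a library. The largest share was in BLM Lamp1-depleted cells, and no untreated library without such reads exists to set it against. As a level these rows were highest in sham Lamp1-depleted cells, with 144 CPM, against 109 CPM in BLM Lamp1-depleted cells.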

How the results depend on the processing

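With 1 library per condition no replicate could be left out. No paired analysis was possible because each group has 1 library. The medians kept their sign except in the BLM sort, and no alternative changed the sign of any other median. With DESeq2 size factors the medians were -0.99 (sham sort), -0.18 (BLM sort, with 3 members higher and 6 lower by a factor of 2), -0.50 (BLM over sham, unsorted), -0.99 (Lamp1-depleted) and -0.21 (Lamp1-enriched). With total counts only they were -1.18, 0.54 (15 higher, 1 lower), -0.78 (21 lower), -1.86 (76 lower) and -0.18; that scaling moves every BLM sort ratio by 0.56, by its own construction. With total counts outside Gm26917 they were -1.22, -0.14 (4 lower), -0.69 (11 lower), -1.21 and -0.18. Without the member rows in the TMM factors the Lamp1-depleted median was -1.15.

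With at least 1 read there were 2 members higher in the sham sort, a Lamp1-depleted median of -1.15 and a Lamp1-enriched median of -0.21. With at least 50 reads the medians were -0.015 (BLM sort, 1 lower), -0.57 (unsorted, 0 higher), -1.15 and -0.18. Thinned counts gave -1.01, -0.081, -0.55 (1 higher) and -1.08 in the sham sort, BLM sort, unsorted and Lamp1-depleted comparisons. With a log2 ratio of at least 0.5 the sham sort had 2 higher and 71 lower, the BLM sort 14 and 14, unsorted cells 44 lower, Lamp1-depleted cells 1 higher and Lamp1-enriched cells 6 lower. With protein-coding members only, 0 were higher in the sham sort and 1 lower in the BLM sort, and the unsorted (0 higher) and Lamp1-depleted medians were -0.57 and -1.15.

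Outside Gm26917 the members' shares were 1.26%, 3.01% and 1.24% in sham and 0.849%, 1.38% and 1.14% in BLM cells; of protein-coding reads they were 1.38%, 3.33% and 1.34%, and 0.917%, 1.63% and 1.21%. The cause of these movements was not tested beyond the construction of each setting. Depth did not limit the members with high counts; ratios of Rpl3l, Rpl6l and Rpl32l rest on few reads.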
